A study of Mus musculus with 11 samples.

Results

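The comparison described here is triptolide alone against untreated control in mouse lung, and it used 5 of the 11 arrays of the series, 3 titled triptolide and 2 titled untreated control. It was read across 19163 autosomal genes, chosen as genes of chromosomes 1 to 19 with exactly 1 gene symbol in the array's annotation and represented by their row with the highest mean, out of 19938 genes so named. The study asked how aspirin and triptolide, given alone or together, bear on lung cancer. All mice were of strain 129S1. Per the treatment protocol, triptolide was given by gavage at 1 mg per kg body weight, 5 days a week for 2 months, and was dissolved or suspended in phosphate-buffered saline. The control arrays are labelled untreated, while the protocol lists a buffer group, and the labels do not settle which of these the controls were. The aspirin group (3 arrays, 4 mg per kg) and the combination group (3 arrays, both drugs at those doses) were used for the estimate of spread and for placing triptolide among the groups. Sex, age and collection time are not given in the labels, nor is it said whether an array holds 1 animal or a pool, so p-values here measure only the spread between these samples.

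Triptolide is a diterpenoid of the thunder god vine. It binds the XPB subunit of TFIIH, encoded by Ercc3, and so blocks the opening of promoters by RNA polymerase II. In cultured cells it is known to deplete short-lived messenger RNAs and to impair the heat shock response. The lung is rich in capillary endothelium, which makes up much of the alveolar wall and meets the flat type 1 cells across a thin barrier, so endothelial transcripts form a large share of RNA from whole lung.

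The values are log2 expression levels, and a difference of 1 is a doubling. Differences are given as triptolide minus control ± SE from a limma fit over all 4 groups. Lung identity held on all 5 arrays: the surfactant gene Sftpc lay between 14.03 and 14.27, the club cell gene Scgb1a1 between 13.91 and 14.05, the type 1 gene Ager between 12.91 and 13.10 and the endothelial claudin Cldn5 between 11.50 and 12.15. In the whole series, combination 1 stood apart on the first principal component, at 60.2 against -15.0 to 6.8 for the others, and it enters the pooled spread. Sex-linked genes divided the triptolide arrays. Xist, which silences an X chromosome in females, read 11.98 and 12.07 in control and 12.32, 9.75 and 6.61 on triptolide 1, 2 and 3. The Y-linked gene Uty read 5.63 and 5.73 in control and 6.29, 9.26 and 8.97 with triptolide. Triptolide 1 was thus the triptolide array closest to the controls in these genes, and its values are given beside several groups of genes below. Triptolide 2 and 3 read unlike both controls in these genes, so on those arrays sex and treatment cannot be told apart.

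No autosomal gene passed an adjusted p of 0.05 in either direction (0% higher and 0% lower of 19163). The smallest limma adjusted p was 0.716. At an unadjusted p under 0.05 limma gave 218 higher genes (1.14%) and 306 lower genes (1.6%), 524 in all, where 958 would be expected with no difference. An unmoderated fit gave 0 at the adjusted threshold and 566 unadjusted. Differences were small: 133 genes lay more than 0.5 above control, 44 lay more than 0.5 below, 11 passed 1 in either direction, and the median SE was 0.129. All 3 triptolide arrays lay above both controls in 1913 genes (9.98%) and below both in 2540 (13.3%). These shares are the background for every count of separated genes that follows. An exact permutation test of 3 arrays against 2 cannot give a two-sided p below 0.2. What follows is a description of values, and no gene named below passed.

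Endothelial genes lay below control on the triptolide arrays. Of 20 pan-endothelial junction, receptor and identity genes, 20 had a negative difference and 17 had all triptolide arrays below both controls, against 13.3% of all autosomal genes. The list's median difference was -0.33, where that of all autosomal genes was -0.01. Its level, the mean of its members minus their control mean, was -0.46, -0.38 and -0.14 on triptolide 1, 2 and 3, and 0.05 and -0.05 on the controls. In whole tissue, fewer cells of a type and less RNA per cell cannot be told apart.

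Among receptors, Tek, the angiopoietin receptor, read 12.19 and 12.09 in control and 11.42, 11.63 and 11.89 with triptolide. Kdr, the main receptor for VEGF, read 12.03 and 11.83 against 11.20, 11.48 and 11.76, a difference of -0.45 ± 0.20. Both kept every triptolide array below control, and triptolide 3 lay closest to it. Cdh5, the cadherin of endothelial junctions, read 13.02 and 12.95 in control and 12.51, 12.47 and 12.77 with triptolide. Endoglin, encoded by Eng, a co-receptor for BMP and TGF-beta ligands, read 12.96 and 12.91 against 12.42, 12.44 and 12.80. The identity factors Erg and Sox18 differed by -0.41 ± 0.14 and -0.45 ± 0.14. The claudin Cldn5 overlapped, since triptolide 3 and control 2 both read 12.08. Egfl7, a secreted endothelial protein, differed by -0.02 ± 0.18, so the members were not uniform.

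Capillary and arterial subsets lay low as well. In general capillary cells, 9 of 10 genes lay below control and 7 were separated, with a median of -0.32. Aplnr, the apelin receptor, read 10.70 and 10.45 in control and 9.23, 9.76 and 10.13 with triptolide, which is among the largest deficits of any gene, at -0.87 ± 0.33. Kit, a growth factor receptor also found on mast cells, differed by -0.51 ± 0.14. The list of mast cell, basophil and eosinophil markers, which holds Kit too, had 8 of 13 below control and a median of -0.10. Lpl, the triglyceride lipase, was the one general capillary gene above control, at 0.14 ± 0.26. All 8 aerocyte genes lay below control, of which 6 were separated. Ednrb, the endothelin receptor of these cells, read 11.52 and 11.49 in control against 10.74, 10.89 and 11.22. Cd34, a sialomucin of capillaries, differed by -0.50 ± 0.16 and the carbonic anhydrase Car4 by -0.29 ± 0.16.

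Arterial genes lay below control on each triptolide array. All 11 lay below control and 9 were separated, and the list levels were -0.43, -0.33 and -0.24 on triptolide 1, 2 and 3. Gja4, which encodes connexin 37, read 9.94 and 9.83 in control and 8.95, 9.27 and 9.24 with triptolide. Its difference of -0.74 ± 0.13 had the smallest p of any autosomal gene, at a limma adjusted p of 0.716. Its partner connexin Gja5 read 10.60 and 10.69 in control against 9.83, 10.15 and 10.40. The Notch ligand Dll4 and the Notch target Hey1 differed by -0.39 ± 0.18 and -0.36 ± 0.17. The broader Notch list was mixed, with 9 of 13 below control and a median of -0.08. Mgp, a matrix protein of vessel walls, differed by -0.03 ± 0.17. Venous and lymphatic genes had a median of -0.01 and 2 of 9 members separated, below control.

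Of 15 receptors and ligands of vessel growth, 13 lay below control and 12 were separated below, with a median of -0.25. This list shares Aplnr, its lowest at -0.87, with the general capillary list, so its counts are not independent of those above. Among receptors, the ephrin receptor Ephb4 differed by -0.35 ± 0.13, Tie1 by -0.26 ± 0.14 and Flt1 by -0.25 ± 0.14. The ligands Vegfa, Vegfb and Angpt1 differed by -0.07 ± 0.18, 0.06 ± 0.09 and 0.10 ± 0.26, and all 3 overlapped control. Angpt2, a ligand made by endothelium itself, read 9.63 and 9.50 in control and 8.93, 8.97 and 9.19 with triptolide. The BMP list was mixed, with 9 of 14 genes below control, 5 of them separated, and a median of -0.03. Its levels were -0.26, -0.01 and -0.01 on triptolide 1, 2 and 3, and without triptolide 1 its direction turned, with 8 of 14 above control and a median of 0.02. The receptors Bmpr2 and Acvrl1 and the inhibitory Smad6 lay below control at -0.28 ± 0.14, -0.27 ± 0.14 and -0.32 ± 0.11, and the ligand Bmp6 at -0.50 ± 0.16. Of the Id genes, direct targets of the pathway, the 3 named here overlapped control, with Id1 at 0.11 ± 0.16, Id2 at 0.08 ± 0.16 and Id3 at -0.15 ± 0.19.

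The endothelial deficit was also present on triptolide 1, the triptolide array closest to the controls in Xist. With triptolide 1 as the only triptolide array, 20 of 20 pan-endothelial genes lay below control, with a median of -0.43. That setting was added after the data were seen and rests on 1 array. Without triptolide 1, 19 of 20 genes lay below control, with a median of -0.28. With the level of Y-linked genes in the fit, 20 of 20 lay below control, with a median of -0.47. Sex is not given in the labels, and its part in the deficit was not tested. Other structural cells shifted less. Alveolar type 1 genes had a median of -0.07, with 11 of 12 below control and 4 separated, all below. Fibroblast and matrix genes had a median of -0.12, with 6 of 17 separated lower and 1 higher, and smooth muscle and pericyte genes -0.01. Without triptolide 1 the type 1 median was -0.04, with 5 of 12 genes above control. With triptolide 1 as the only triptolide array it was -0.16, and with the Y-linked level in the fit -0.21. In both, 12 of 12 type 1 genes lay below control. The smooth muscle median changed sign with the array left out, at 0.05, 0.07 and -0.08 without triptolide 1, 2 and 3.

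**Figure D1:**
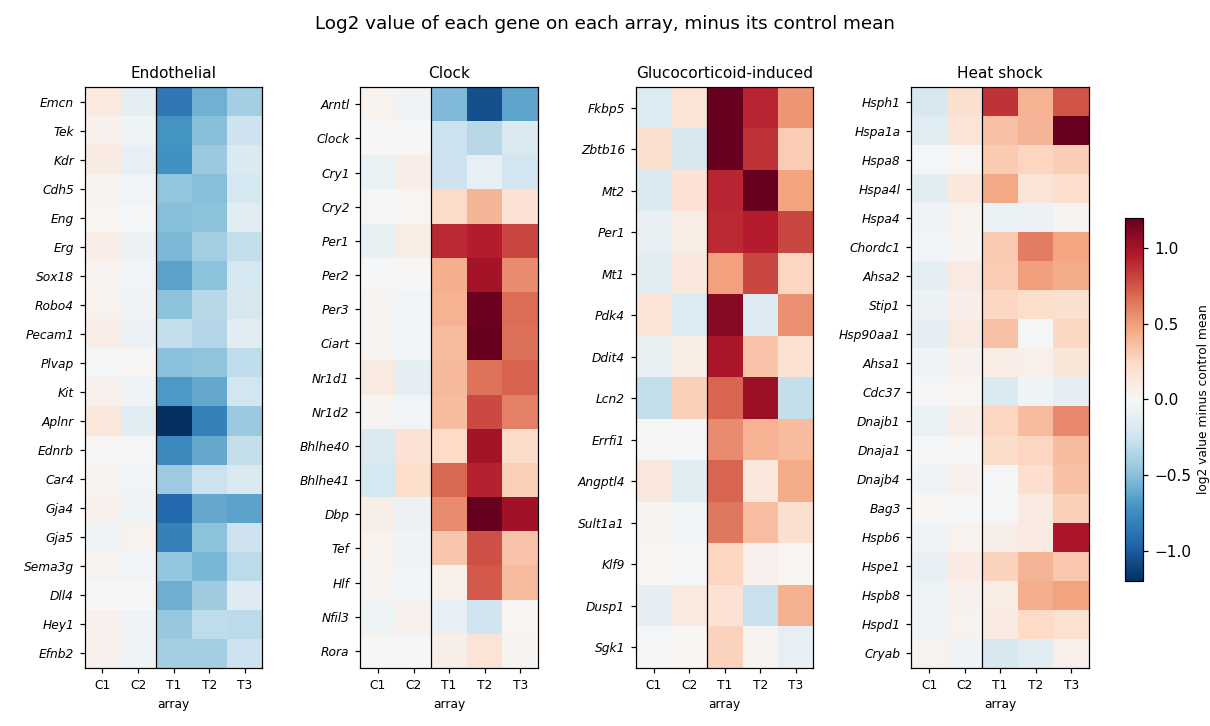
Colour gives each gene's log2 value minus its control mean on control 1 and 2 (C1, C2) and triptolide 1 to 3 (T1 to T3), with values beyond 1.2 in either direction drawn at the end of the scale. The 20 endothelial genes, chosen after their values were seen from 55 in the endothelial lists, are blue on all triptolide arrays and palest on T3 except in Gja4 and Hey1; the period genes and Ciart are reddest on T2, Fkbp5 and Zbtb16 on T1 and Hspa1a and Hspb6 on T3.

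Genes of the heat shock system lay above control. Heat shock proteins fold and refold other proteins, and their genes are driven by the factor HSF1 through repeated GAA units in promoters. Over the 4 heat shock lists, mostly cytosolic but with mitochondrial members such as Hspe1, 32 of 38 genes lay above control. Of the 38, 17 were separated above and 2 below, and the median was 0.12. Among HSP70 and HSP110 chaperones, 7 of 8 lay higher than control (median 0.20). Hsph1, the HSP110 that recharges HSP70, read 8.83 and 9.22 in control and 9.89, 9.44 and 9.78 with triptolide. Hspa8, the constitutive HSP70, read 13.03 and 13.08 against 13.37, 13.31 and 13.35. Hspa1a, the stress-induced HSP70, which shares sequence with a near-identical gene so that its value may not be its own, read 9.05 and 9.35 against 9.55, 9.61 and 10.48. Hspa4 and Hspa1l, relatives that are little induced by stress, differed by -0.04 ± 0.09 and 0.03 ± 0.12.

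The HSP90 machine had 7 of 9 members above control. Chordc1 read 9.37 and 9.44 in control and 9.72, 10.02 and 9.88 with triptolide. Ahsa2, an activator of the HSP90 ATPase, read 8.52 and 8.73 against 8.93, 9.13 and 9.07. Both separated fully, as did Stip1, which joins HSP70 to HSP90, at 0.21 ± 0.13. Hsp90aa1 itself differed by 0.19 ± 0.13 and overlapped, and the kinase adaptor Cdc37 lay below both controls at -0.11 ± 0.13. Among J-domain partners, which load HSP70, Dnajb1 read 9.36 and 9.52 in control and 9.70, 9.82 and 10.02 with triptolide, and Dnaja1 10.87 and 10.90 against 11.11, 11.14 and 11.26. Bag3, which releases clients from HSP70, overlapped at 0.12 ± 0.14. Small heat shock proteins and chaperonins had 9 of 10 members above control. The mitochondrial co-chaperonin Hspe1 differed by 0.34 ± 0.17. Hspb6, a small heat shock protein of muscle, read 10.17 and 10.25 in control and 10.28, 10.31 and 11.18 with triptolide, so its difference lay on triptolide 3, which was also the array with the highest cardiac muscle level, at 1.14.

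Over the 4 lists together the triptolide arrays stood at 0.11, 0.16 and 0.24 and the controls at -0.05 and 0.05. With triptolide 1 as the only triptolide array, 27 of 38 genes lay above control with a median of 0.07, and 22 of 38 did, with a median of 0.05, once the level of Y-linked genes entered the fit. The HSP70 and HSP110 list had a median of 0.30 in both, with 7 and 6 of 8 genes above control, and of 0.11 without control 1. In the same 2 settings the HSP90 list had 7 and 6 of 9 above, with medians of 0.09 and 0.11. The J-domain list had 5 of 11 above in both, with medians of -0.03 and -0.06. Small heat shock proteins and chaperonins had 8 and 5 of 10 above, with medians of 0.07 and 0.01.

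RefSeq promoter windows of GRCm38.p6, from 250 bases before to 50 after each start, were available for 35 of the 38 heat shock genes. The 2-unit heat shock core GAANNTTC, on either strand, was present in 17 of their 48 windows (35.4%), against 7.86% of all 32851 windows, and in 0 of the 20 windows of the clock genes. A match is a description of letters and not of binding. Hspa1a also has a match before its start and a smaller p, but its value may not be its own, so Dnaja1 is shown. Of its RefSeq windows, the one with a match is given, 250 bases up to the start with the core, 124 bases before the start, in capitals:
Dnaja1 (chr4:40722218-40722467, plus strand): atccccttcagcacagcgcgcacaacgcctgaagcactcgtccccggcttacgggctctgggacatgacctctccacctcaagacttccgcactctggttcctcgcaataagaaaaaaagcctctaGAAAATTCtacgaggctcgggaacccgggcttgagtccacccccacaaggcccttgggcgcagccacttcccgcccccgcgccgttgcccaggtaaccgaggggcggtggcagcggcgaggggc

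Genes raised through the glucocorticoid receptor lay above control in 14 of 14 measured cases. The receptor is a steroid-activated transcription factor, and lung responds to it through metabolic, anti-inflammatory and clock genes. The list's median was 0.49 and 9 members were separated. Fkbp5, a chaperone of the receptor that feeds back on it, read 8.15 and 8.47 in control and 10.05, 9.22 and 8.84 on triptolide 1, 2 and 3. Zbtb16, a zinc finger repressor strongly induced by steroids, read 9.96 and 9.57 against 11.43, 10.63 and 10.07. Ddit4, an inhibitor of mTOR signalling, read 9.02 and 9.20 against 10.09, 9.45 and 9.29. These 3 genes share 1 order, with triptolide 1 highest and triptolide 3 lowest, and the list levels followed it at 0.79, 0.48 and 0.30. Errfi1, an inhibitor of EGFR, was more even, at 11.60 and 11.61 against 12.17, 12.02 and 11.98. Sgk1, Dusp1 and Klf9, which the receptor also induces, differed by 0.07 ± 0.22, 0.11 ± 0.29 and 0.11 ± 0.23. The receptor gene Nr3c1 lay below control, at 10.88 and 10.77 against 10.42, 10.62 and 10.66. With triptolide 1 as the only triptolide array the list's median was 0.69, and without that array it was 0.33 with 13 of 14 above control.

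Metallothioneins bind zinc and copper and respond to both metals and steroids. Mt2 read 10.78 and 11.13 in control and 11.87, 12.21 and 11.44 with triptolide, and Mt1 10.37 and 10.62 against 10.99, 11.30 and 10.75. The genes are neighbours on chromosome 8 and similar in sequence, so they are not independent readings. Both separated from control and both were highest on triptolide 2. A short motif of the glucocorticoid receptor, TGTTCT, was in 4 of the 19 windows of 12 glucocorticoid-list genes (21.1%), against 19.0% of all windows. By gene it was in 2 of the 12 (16.7%), against 21.3% of all genes with windows. The metal response element, searched as TGCACNC or TGCGCNC on either strand, is common, at 25.7% of all windows. It was in 31.6% of those 19 windows and in 50% of the 20 windows of the clock genes. It stood before the start once in Mt1 and 3 times in Mt2, in capitals here:
Mt1 (chr8:94178839-94179088, plus strand): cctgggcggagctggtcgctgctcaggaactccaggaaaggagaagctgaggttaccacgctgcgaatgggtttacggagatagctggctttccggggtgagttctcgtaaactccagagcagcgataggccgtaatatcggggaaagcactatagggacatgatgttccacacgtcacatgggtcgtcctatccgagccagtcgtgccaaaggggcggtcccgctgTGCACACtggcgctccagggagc
Mt2 (chr8:94172368-94172617, plus strand): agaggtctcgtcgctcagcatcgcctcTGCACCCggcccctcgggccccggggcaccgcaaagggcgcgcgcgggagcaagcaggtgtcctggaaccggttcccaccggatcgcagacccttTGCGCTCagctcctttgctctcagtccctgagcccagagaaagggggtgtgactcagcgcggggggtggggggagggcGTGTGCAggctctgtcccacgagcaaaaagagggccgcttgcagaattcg

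Cebpd, a C/EBP transcription factor of the acute phase that steroids and cytokines both induce was nearly level over the triptolide arrays. It read 8.43 and 8.50 in control and 9.39, 9.41 and 9.45 with triptolide, a difference of 0.96 ± 0.20 at a limma adjusted p of 1. Serpina3n, a secreted protease inhibitor of the acute phase, read 12.15 and 12.20 against 12.69, 12.63 and 12.65, likewise close together. Of the 17 members of the acute phase and STAT3 list, 15 lay above control and 4 were separated, with a median of 0.18. Cebpb differed by 0.18 ± 0.15 and Socs3, the feedback inhibitor of STAT3, by 0.13 ± 0.15. Saa3, Orm1 and Lcn2, secreted products of the response, overlapped control at 0.44 ± 0.74, 0.38 ± 0.36 and 0.48 ± 0.43.

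In the circadian clock, CLOCK and BMAL1 (encoded by Arntl) switch on their own repressors, the period and cryptochrome genes and the REV-ERB receptors, and output factors such as Dbp. Arntl, of the activating limb, read 9.58 and 9.49 in control and 9.01, 8.48 and 8.90 with triptolide, and Clock 10.59 and 10.60 against 10.34, 10.26 and 10.42. All triptolide values of both lay below control. Rora, a receptor that switches on Arntl and the remaining measured activator, lay above both controls at 0.09 ± 0.20. Of the 10 repressors, 9 lay above control and 10 were separated, Cry1 being the one below, at -0.20 ± 0.10. Per1 read 9.69 and 9.86 against 10.67, 10.72 and 10.58. Per2 read 9.08 and 9.11 against 9.53, 10.09 and 9.66, and Ciart, a repressor that binds CLOCK and BMAL1, 8.27 and 8.20 against 8.61, 9.56 and 8.90. The REV-ERB genes Nr1d1 and Nr1d2 each differed by 0.59 ± 0.27. Among outputs, Dbp read 8.94 and 8.80 in control and 9.44, 10.42 and 9.88 with triptolide, and Tef 9.66 and 9.58 against 9.95, 10.39 and 9.96. Nfil3, which opposes these output factors at the same sites, differed by -0.10 ± 0.29.

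Triptolide 2 was the most shifted array in the clock. Arntl was lowest there, Per3, Ciart and Dbp were highest, and the repressor levels were 0.38, 0.81 and 0.45 on triptolide 1, 2 and 3. Per1 departed from this pattern, with triptolide values close to each other. With triptolide 1 as the only triptolide array the repressor median was 0.39 and 9 of 10 lay above control. It was 0.30 once the level of Y-linked genes entered the fit. The 4 output factors had a median of 0.44. Their median was 0.20 with triptolide 1 as the only triptolide array and 0.11 with the Y-linked level in the fit. The difference between triptolide and aspirin in the repressors was small, with a median of 0.05.

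The E-box CACGTG, which CLOCK and BMAL1 bind, was present in 6 of the 20 windows of 15 clock genes (30%), against 7.15% of all windows. It was also in 4 of the 19 windows of glucocorticoid-list genes (21.1%), and Per1 belongs to both lists. The D-box, searched as TTACGTAA or TTATGTAA, was in 1 of the 20 (5%), against 1.06% of all. Of the clock genes with a match before the start, Per1, Ciart and Per3 had the smallest p. The E-boxes of Per1 and Ciart and the D-boxes of Per3 are in capitals:
Per1 (chr11:69098699-69098948, plus strand): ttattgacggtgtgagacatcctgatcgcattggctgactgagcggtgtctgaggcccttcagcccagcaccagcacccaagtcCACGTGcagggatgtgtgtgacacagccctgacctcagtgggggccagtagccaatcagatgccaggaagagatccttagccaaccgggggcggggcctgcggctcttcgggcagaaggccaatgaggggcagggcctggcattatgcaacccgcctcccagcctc
Ciart (chr3:95882229-95882478, minus strand): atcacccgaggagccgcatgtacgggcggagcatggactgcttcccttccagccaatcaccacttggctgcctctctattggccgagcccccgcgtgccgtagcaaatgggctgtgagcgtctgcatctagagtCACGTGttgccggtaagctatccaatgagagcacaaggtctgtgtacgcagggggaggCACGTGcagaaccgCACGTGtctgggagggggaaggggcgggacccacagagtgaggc
Per3 (chr4:151044666-151044915, minus strand): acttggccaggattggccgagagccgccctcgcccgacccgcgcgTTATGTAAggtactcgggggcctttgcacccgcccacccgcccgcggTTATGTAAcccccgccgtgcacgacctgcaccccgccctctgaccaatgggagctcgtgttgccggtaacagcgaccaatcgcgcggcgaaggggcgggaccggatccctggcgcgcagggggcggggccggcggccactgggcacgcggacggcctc
Ciart holds 3 E-boxes within 116 bases of its start and Per3 holds 2 D-boxes, while these windows of Dbp and Nr1d1, which also lay above control, held no E-box of these letters.

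**Figure D2:**
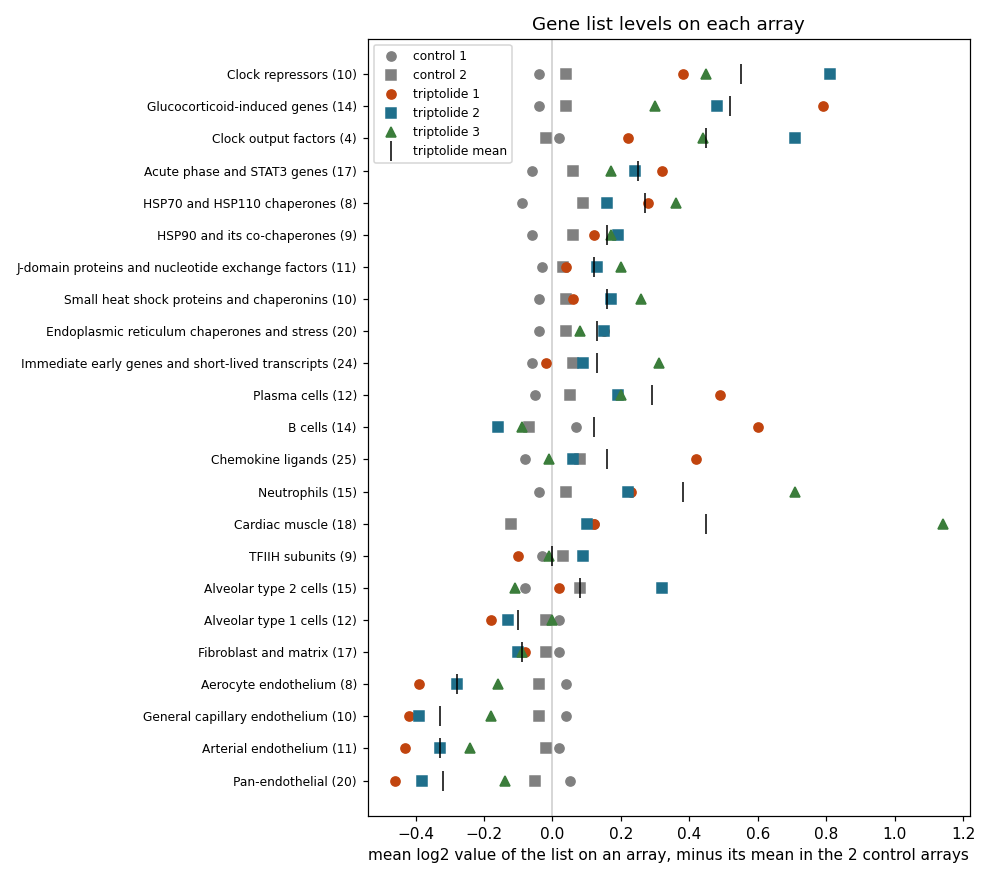
Each row is a gene list, with its number of measured genes, and each point is 1 array's mean log2 value over the list minus the list's control mean; the short line is the triptolide mean. Clock repressors and glucocorticoid-induced genes have all triptolide points above control, and the 4 endothelial lists drawn have all below. The venous and lymphatic list is not drawn and stood at 0.04, -0.15 and 0.05 on triptolide 1, 2 and 3. The cardiac muscle mean of 0.45 rests on triptolide 3 at 1.14 and the B cell mean of 0.12 on triptolide 1 at 0.60.

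The drug's target complex and the transcription machinery lay near control. Ercc3 read 10.42 and 10.50 in control and 10.31, 10.35 and 10.34 with triptolide, a difference of -0.13 ± 0.08. Of 9 measured TFIIH subunits 4 lay above control and 5 below, from -0.16 to 0.23, with a median of -0.01. Polr2a, the catalytic subunit of RNA polymerase II, differed by 0.00 ± 0.10, and the list of its subunits and elongation factors had a median of 0.01. Genes with short-lived messenger RNA did not lie below control as a group, with 17 of 24 above, 9 separated above and 1 below. Their median was 0.14. With triptolide 1 as the only triptolide array, 13 of 24 lay above control, with a median of 0.04. Myc read 9.17 and 9.28 in control and 9.61, 9.61 and 9.43 with triptolide. Mcl1, a short-lived survival factor, read 11.13 and 11.20 against 11.34, 11.26 and 11.40. Nr4a2 and Nr4a3, orphan receptors of the immediate early class, differed by 0.38 ± 0.13 and 0.57 ± 0.23, and Zfp36, which destabilizes cytokine messages, by 0.45 ± 0.21. Ier3 was the gene separated below, at -0.31 ± 0.15. Fos, Egr1 and Jun overlapped control, at -0.15 ± 0.34, -0.10 ± 0.34 and -0.08 ± 0.17.

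Inflammatory regulators showed small shifts. In the NF-kB list 16 of 21 genes lay above control (median 0.08; 0.02 without triptolide 1), and the subunit Rela differed by -0.06 ± 0.12. Ptgs2, the inducible cyclooxygenase that aspirin inhibits, read 9.93 and 10.43 in control and 10.43, 10.25 and 10.37 with triptolide, and did not separate. The receptors for thromboxane (Tbxa2r), prostacyclin (Ptgir) and prostaglandin E (Ptger3) lay below both controls at -0.27 ± 0.11, -0.21 ± 0.09 and -0.19 ± 0.09. Over the 16 prostanoid genes 5 were separated below and 1 above. Survival and death regulators had a median of 0.03 and p53 targets of 0.09. Chaperones of the endoplasmic reticulum and stress genes lay above control in 19 of 20 cases, 10 of them separated, but with a median of only 0.12. Herpud1, which clears misfolded proteins from that compartment, was the largest, at 11.59 and 11.74 in control and 12.23, 12.08 and 11.98 with triptolide.

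Lymphoid and chemokine genes differed between the triptolide arrays. Chemokine ligands lay above control in 18 of 25 cases, 8 separated above and 3 below. Ccl8, a monocyte attractant, read 7.19 and 7.41 in control and 9.06, 7.93 and 7.65 with triptolide. Cxcl13, which draws B cells, read 9.32 and 9.61 against 11.14, 9.92 and 9.76, and Cxcl9, an interferon-gamma target, 8.01 and 8.20 against 9.53, 8.76 and 8.36. All 3 were highest on triptolide 1. So was the B cell level, at 0.60 there and -0.16 and -0.09 on triptolide 2 and 3, as was that of T cells, at 0.29 there and -0.14 and 0.05. The part of lymphoid cell content in the chemokine values was not tested. Without triptolide 1, 2 of 14 B cell genes lay above control, with a median of -0.07, and 13 of 25 chemokine genes did, with a median of 0.02.

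Plasma cell levels were 0.49, 0.19 and 0.20 on triptolide 1, 2 and 3. Jchain, which joins secreted antibodies, differed by 0.89 ± 0.37. Igha, the constant region of IgA, read 10.02 and 10.18 in control and 11.14, 10.44 and 11.03 with triptolide, and Derl3, which exports misfolded proteins in secretory cells, 8.64 and 8.63 against 9.38, 9.12 and 8.89. All 3 separated. Of 12 plasma cell genes 11 lay above control and 5 were separated above, with a median of 0.23. Without triptolide 1, 8 of 12 lay above control with a median of 0.12, and with it as the only triptolide array the median was 0.61. Prdm1, a factor that drives plasma cell fate and is also found in other lymphocytes, lay below both controls at -0.29 ± 0.11.

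Cardiac muscle and neutrophil markers rested largely on triptolide 3. Cardiac genes lay above control in 18 of 18 cases, with list levels of 0.12, 0.10 and 1.14 on triptolide 1, 2 and 3 and 0.12 and -0.12 in control. The natriuretic peptide gene Nppa read 8.01 and 7.59 in control and 8.39, 7.34 and 10.48 with triptolide. Without triptolide 3 the cardiac median was 0.09 rather than 0.46. Neutrophil levels were 0.23, 0.22 and 0.71, and without triptolide 3 the median was 0.18 rather than 0.39. S100a9, a calcium-binding protein abundant in neutrophils, read 8.58 and 8.54 against 8.83, 9.19 and 10.19. The endothelial, heat shock, clock and glucocorticoid lists were in the same direction without that array, with medians of -0.40 for pan-endothelial genes, 0.10 for the 38 heat shock genes, 0.67 for clock repressors and 0.57 for glucocorticoid-induced genes.

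The genes with the smallest p that are not described above were mixed in kind. Slc5a12, a lactate transporter, read 8.65 and 8.58 in control and 8.04, 7.81 and 7.80 with triptolide. Rasgrp3, an activator of Ras in endothelium and B cells, read 10.89 and 10.78 against 9.93, 10.20 and 10.37. Pgr, the progesterone receptor, read 8.29 and 8.34 against 7.72, 7.94 and 7.83. Dchs1, a giant cadherin of planar polarity, and the interferon-induced GTPases Gbp7 and Gbp9 lay below control at -0.41 ± 0.10, -0.36 ± 0.09 and -0.52 ± 0.12. Interferon-induced genes as a list had a median of -0.06, with 5 of 13 separated below, and of 0.05 with triptolide 1 as the only triptolide array. Sema3g, an arterial semaphorin and a member of the endothelial lists, and Ccrl2, a receptor that presents chemerin, differed by -0.44 ± 0.10 and -0.47 ± 0.11. The remaining lower genes of the 12 were Zfp979, Tpgs2 and Cpd, from -0.65 to -0.35.

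On the higher side, Folh1, a folate hydrolase, read 6.59 and 6.39 in control and 6.79, 7.35 and 7.31 with triptolide. Asic2, an acid-sensing channel, read 7.84 and 7.87 against 8.09, 8.41 and 8.58, and Pla1a, a phospholipase that makes lysophosphatidylserine, 7.79 and 7.78 against 8.16, 8.54 and 8.38. In these 3 genes triptolide 1 was the lowest triptolide array. Acadl, which oxidizes long-chain fatty acids, differed by 0.33 ± 0.09 with 10.36 and 10.51 in control against 10.72, 10.75 and 10.81. Klhl29, Fam227a, Map11 and Gdap10 lay between 0.41 and 0.50 above control. Of the 12 genes with the smallest p on this side, Hsph1, Ahsa2, Derl3 and Cebpd are described above.

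**Figure D3:**
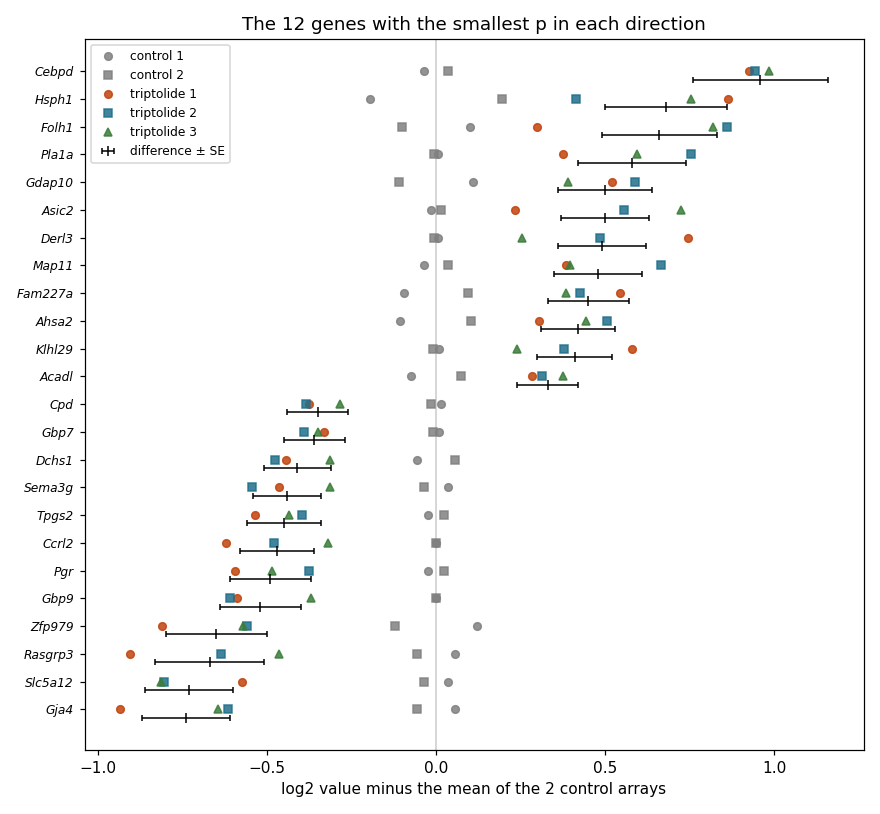
Points are single arrays and black bars the difference ± SE, all on the log2 scale relative to the control mean, for the 12 genes with the smallest limma p in each direction among those whose groups do not overlap. Cebpd has its triptolide points close together, at 9.39 to 9.45, while Gja4 and Rasgrp3 are lowest on triptolide 1; none of the 24 passed.

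The largest differences were less even. Adck1, a mitochondrial kinase-like gene, read 7.39 and 7.25 in control and 9.44, 8.77 and 9.24 with triptolide, a difference of 1.83 ± 0.79, but its row with the lowest mean differed by -0.06. Penk, which encodes enkephalin peptides, read 9.22 and 8.74 against 9.49, 10.52 and 11.08. Reg3g, an antimicrobial lectin of airways, read 6.83 and 6.86 against 8.86, 7.31 and 7.98, and Klk1b22, one of a family of similar kallikrein genes, differed by 1.04 ± 0.44. Glp1r, the receptor for glucagon-like peptide 1, had the largest deficit. It read 11.41 and 11.07 in control and 9.60, 10.23 and 10.78 with triptolide. Spon2, a matrix protein that binds microbes, read 9.56 and 9.72 against 8.83, 8.36 and 9.02. Tnfsf10, which encodes the death ligand TRAIL, and Edil3, an integrin ligand made by endothelium, read below control in the order triptolide 1, 2 and 3, at 9.63, 10.08 and 10.39 against 10.89 and 10.79, and at 8.34, 8.79 and 9.12 against 9.57 and 9.47. Scn3b, a sodium channel subunit, Myct1, an endothelial gene, Adm, which encodes the vessel-relaxing peptide adrenomedullin, and Glo1, which clears methylglyoxal, differed by -0.78 ± 0.22, -0.68 ± 0.20, -0.70 ± 0.26 and -0.78 ± 0.33.

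Triptolide was then placed among the other regimens, whose differences from control use the same 2 control arrays. For pan-endothelial genes the median differences from control were -0.10 with aspirin, -0.33 with triptolide and -0.73 with the combination. For the 38 heat shock genes they were -0.06, 0.12 and 0.19, for glucocorticoid-induced genes 0.08, 0.49 and 0.32, and for clock repressors 0.40, 0.61 and 0.62. Glucocorticoid list levels were -0.17, 0.78 and 0.20 on aspirin 1, 2 and 3. They overlapped those on triptolide 1, 2 and 3, at 0.79, 0.48 and 0.30. Set directly against aspirin, triptolide gave 0 autosomal genes at an adjusted p of 0.05 by limma and 627 at an unadjusted p under 0.05. Gja4 differed from aspirin by -0.58 ± 0.11 and Hsph1 by 0.80 ± 0.16, both at a limma adjusted p of 0.96, so a difference between the drugs in these genes was not established. The combination set against triptolide gave 0 genes adjusted and 2593 unadjusted, 667 higher and 1926 lower. Cdh5 lay lower still in the combination, by -0.49 ± 0.13, and Gja4 by -0.13 ± 0.11, at limma adjusted p of 0.353 and 0.546. Whether triptolide acted differently with aspirin present was tested as an interaction. It gave 0 genes adjusted and 646 unadjusted, with the smallest limma adjusted p of 0.264 at Asic2, whose interaction was -1.28 ± 0.17.

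**Figure D4:**
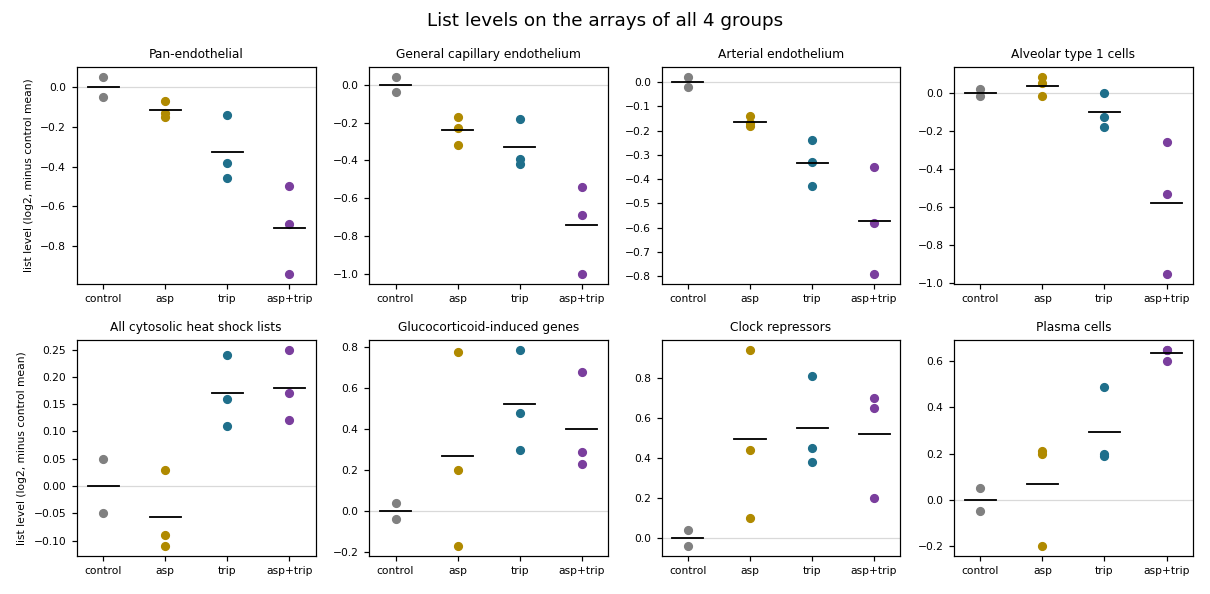
Each point is 1 array's list level, the mean log2 value of the list minus its control mean, for control (2 arrays) and aspirin, triptolide and aspirin with triptolide (3 arrays each), and lines are group means. Pan-endothelial levels are lowest with both drugs and the triptolide mean lies between them and control, with triptolide 3 at -0.14 inside the aspirin range of -0.15 to -0.07, while clock repressor levels with aspirin, triptolide and both drugs overlap.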

How the data were processed

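Expression in mouse lung was measured on 11 Affymetrix gene arrays in 4 groups, of which the 3 triptolide and 2 control arrays are compared here. The deposited values are on a log2 scale, 1 per row and array over 35556 rows, and per the submitters' processing notes the authors used RMA and Partek. Software versions and settings, and a genome build, were not given in the sources used here. Medians of single arrays lay between 8.13 and 8.25, and precision is limited by how few arrays there are. Groups and replicate numbers came from the titles.

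Gene names came from the platform annotation held by GEO: 21789 rows had 1 symbol, 1621 had several and were left out, and 12146 were unnamed here. The row with the highest mean stood for each of 999 genes with several rows. Chromosomes came from the GRCm38.p6 RefSeq table, and 775 genes that were not on an autosome or had no place were fitted but not described. limma 3.58.1 in R 4.3.3 (lmFit, eBayes) was fitted over 19938 genes and 11 arrays with no covariate and no filter, with two-sided tests, Benjamini-Hochberg adjustment over all genes and a threshold of 0.05. The fit was tested on simulated data.

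The comparison and the 59 gene lists (778 symbols, 723 matched) were chosen with earlier results of these data known, so lists have counts and medians but no test. Named genes were the 12 smallest p and the 12 largest differences in each direction among genes whose groups did not overlap, leaving out predicted genes, small RNAs and receptor or antibody segments, with any list member and a few fixed genes (Ercc3, Polr2a, Myc, Mcl1, Rela, Ptgs2, Hspa1a, Nr3c1, Mki67). Hsf1 was also to be named and is not analysed here. Samples with the same number were checked for pairing by the correlation of their deviations from group means, which ran from -0.139 to 0.329. Between samples with different numbers it ran from -0.382 to 0.337. The numbers were not taken to pair samples in the main fit, and a fit with them as a block is given below. Alternatives covered normalization, centring, array weights, variance prior, filter, row choice, Y-linked level, the replicate block and arrays left out.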

Additional observations from a re-analysis of the deposited data

How the results depend on the processing

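The count of 0 passing genes held in the settings that changed normalization, centring, prior, filter, row choice, the Y-linked covariate, the groups fitted or the arrays included, and without moderation. Array weights were the exception: REML weights did not converge, gave aspirin 3 a weight of 43.46 and called 184 higher and 122 lower genes, and gene-by-gene weights, chosen after the data were seen, called 4 higher and 5 lower, among them Cebpd at 0.97, Gja4 at -0.71 and Slc5a12 at -0.76. Genes at an unadjusted p under 0.05 numbered 524 as reported, 988 with the triptolide and control arrays only, 3276 and 2208 with the 2 kinds of weight, and from 158 (without control 1) to 953 (without combination 1) with 1 array left out; without control 2 there were 283. With the replicate block there were 711, and 0 genes passed; 7 of 11 arrays correlated best with their own number in another group. Adck1, whose 1.83 was the largest difference of any autosomal gene, read -0.06 with the lowest row per gene. Signs also turned in 4 genes with smaller differences. Mki67, 0.14 as reported, was -0.26 and -0.15 with weights and from -0.00 to 0.39 with 1 array left out. Polr2a was -0.02 with centred arrays, -0.04 and -0.03 with weights and from -0.04 with 1 array left out. With 1 array left out, Ptgs2 ran from -0.08 to 0.41 and Rela from -0.14 to 0.04, and Rela was 0.02 with REML weights. The causes were not tested. No detection call comes with the values, so low levels could not be told from background.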

Other observations

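Hypoxia targets had 10 of 13 genes above control and a median of 0.09, and 9 to 11 of 13 lay above control with any 1 control or triptolide array left out. Other lists turned with 1 array. Cholesterol synthesis genes had 6 of 13 above control, but 0 of 13 without control 1 and 9 of 13 without control 2. NRF2 targets had 6 of 12 above control, 4 of 12 without control 1 and 11 of 12 without control 2. Cell cycle genes had 14 of 19 above control with a median of 0.04, and 7 of 19 with a median of -0.02 without triptolide 2. Mki67, a marker of dividing cells, read 8.55 and 8.50 in control and 8.88, 8.96 and 8.18 with triptolide. Alveolar type 2 genes had 13 of 15 above control with a median of 0.10, and 5 of 15 with a median of -0.01 without triptolide 2. None of the 15 was separated above, and the lysozyme gene Lyz1 lay below both controls at -0.47 ± 0.22. MAPK feedback genes stood at -0.14, 0.39 and 0.01 on triptolide 1, 2 and 3, with a median of 0.08 that was -0.01 without triptolide 2.

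Adipocyte genes had a median of -0.35, with controls at 0.32 and -0.32 and triptolide arrays at -0.08, -0.82 and 0.00, and the median was 0.02 without control 1. Adipoq, the fat cell hormone adiponectin, read 9.75 and 8.31 in the controls and 8.43, 7.13 and 8.85 with triptolide, and 0 of 11 adipocyte genes were separated. Ciliated cell genes had 11 of 12 above control with a median of 0.21, and 5 of 12 with a median of -0.02 without control 1.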
